A study of Mus musculus with 31 samples.

Results

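The step from double negative (DN) to double positive (DP) thymocytes in the adult thymus is described here from all 4 adult DP libraries, replicates 1 to 4, and the 3 adult DN libraries, replicates 2, 3 and 4. These are 7 of the 31 libraries of a series that followed T cells from the thymus to the spleen at 2 ages by sequencing of polyadenylated RNA, and they were chosen by their titles. All groups of the series were C57BL/6 mice, an inbred laboratory strain, with no treatment, and the mice of both groups compared were 12 weeks old. DN cells carry neither CD4 nor CD8 on their surface, and each DN library pools the DN1, DN2 and DN3 steps, so changes from one of these steps to the next are averaged within it. DP cells carry both proteins. They were sorted from the thymus cells that CD4 beads held, and DN cells from those that neither CD4 nor CD8a beads held. The antibodies named for sorting are those to CD4, CD8, CD44 and CD25, and a lineage cocktail against other blood cells is not mentioned in the sources used here. Replicates were separate biological samples per the design text. Adult DN replicate 1 was not analysed here. DN and DP cells of neonates of 5 to 7 days, with 4 libraries each, are compared at the end.

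Thymocyte progenitors enter the thymus as DN cells, receive Notch and interleukin 7 signals and rearrange the T cell receptor beta chain. A cell whose beta chain pairs with the pre-T alpha chain passes beta selection, divides and becomes a DP cell, which rearranges the alpha chain and waits for selection on self peptides. Adult DN cells also give rise to gamma-delta T cells, and other blood cells that lack CD4 and CD8 can be sorted with them.

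Library totals ran from 14986973 to 25161889 counts in DN and from 14653875 to 20324520 in DP. Levels are in CPM (counts relative to the library total, which TMM adjusts), always in the order DN replicates 2, 3, 4 and DP replicates 1, 2, 3, 4. A fold change is that of DP over DN on the log2 scale, and a gene was called when its edgeR quasi-likelihood p, adjusted by Benjamini-Hochberg over all 16461 tested genes, was below 0.05. "Rose" and "fell" are used only for called genes. A group whose libraries all held at most 3 counts was taken to be at the floor, and folds against it are lower bounds that cover counting error only. Principal components were taken over the 1000 genes that varied most across these 7 libraries, a choice that favours genes differing between the groups. The first component held 95.8% of the variance of these genes and separated DN (−102.24 to −85.39) from DP (67.73 to 70.61). DN replicate 4 stood apart on the second (−20.94, against 10.44 and 12.53), which held 1.54%, and it had the highest summed level of B cell genes (2633 CPM, against 827 and 516 CPM). DN replicate 4 was also the highest DN library for listed dendritic and class II genes (1707 CPM, against 1383 and 946 CPM) and myeloid genes (282 CPM, against 194 and 126 CPM). Mature T cell and erythroid genes were highest in DN replicate 2. DP replicate 1 had a summed level of 41.5 CPM for the listed sex-linked genes, against 257 to 479.9 CPM in the other DP and 202 to 279 CPM in the DN libraries. This sum pools 5 genes and does not tell which of them were low in DP replicate 1. The labels do not give the sex of the mice.

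Promoter sequences of 4 cell cycle genes are shown first, because nearly all members of the cell cycle lists were lower in DP, with that of Ptcra as an example of a Notch target. They are the bases just before the RefSeq start on GRCm38.p6, on the gene's own strand and 5′ to 3′, with motif matches of either strand in capitals. Cdk1 is the mitotic kinase, Top2a a topoisomerase of dividing cells, Mcm6 a subunit of the replicative helicase and Dtl a licensing regulator, and Ptcra encodes the pre-T alpha chain. In Cdk1 and Top2a the capitals mark the CHR letters TTTGAA, in Mcm6 and Dtl the E2F letters TTTGGCGC, and in Ptcra the RBPJ core TGGGAA. The windows are chr10:69352913-69353032 for Cdk1, chr11:99024190-99024389 for Top2a, chr1:128359706-128359835 for Mcm6, chr1:191575545-191575604 for Dtl and chr17:46763713-46763832 for Ptcra, all on the minus strand.
Cdk1: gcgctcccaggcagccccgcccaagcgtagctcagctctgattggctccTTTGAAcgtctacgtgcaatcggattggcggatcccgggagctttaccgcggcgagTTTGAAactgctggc
Top2a: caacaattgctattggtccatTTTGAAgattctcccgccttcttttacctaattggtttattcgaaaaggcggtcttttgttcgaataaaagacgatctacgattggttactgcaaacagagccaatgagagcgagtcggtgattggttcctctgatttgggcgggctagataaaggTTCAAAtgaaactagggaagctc
Mcm6: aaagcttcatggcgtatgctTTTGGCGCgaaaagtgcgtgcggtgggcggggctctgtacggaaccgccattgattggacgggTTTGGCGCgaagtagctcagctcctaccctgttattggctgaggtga
Dtl: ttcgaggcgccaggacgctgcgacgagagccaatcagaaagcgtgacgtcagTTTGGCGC
Ptcra: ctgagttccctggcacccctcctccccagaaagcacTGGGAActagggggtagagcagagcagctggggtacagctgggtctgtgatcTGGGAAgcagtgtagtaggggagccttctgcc
Over the RefSeq windows of 250 bases before to 50 after the start, the CHR letters were found on either strand in 29 of 43 promoters of listed G2 and M phase genes (67.4%), against 17.9% of all 32851 promoters. TTTCCCGC or TTTGGCGC was found in 10 of 30 promoters of S phase genes (33.3%), against 1.56% of all. The RBPJ core was found in 3 of 10 promoters of Notch targets (30%), against 25.6% of all. The 3 were those of Ptcra, which fell, Cd3e, which rose, and Hes5, which did not pass the test. The sterol response element was found in 0 of 19 promoters of cholesterol genes, against 0.0913% of all. None of the matches shown overlap each other. Promoters were available for 39 of 46 G2 and M phase genes, 27 of 36 S phase genes and 16 of 22 cholesterol genes. Of the 14 Notch targets 9 had one. Hes1 and Myc had none and were not searched. A match is a description of letters and not of binding.

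The genes of the surface proteins used for sorting check the labels, and their differences are no finding. Cd4 (ENSMUSG00000023274, chr6:124864692-124888221, - strand) stood at 1.66, 3.24 and 1.88 CPM in DN and 1673, 1666, 1657 and 1718 CPM in DP. Cd8a (ENSMUSG00000053977, chr6:71373427-71379173, + strand), the CD8 alpha chain, stood at 11.8, 16.7 and 14.05 CPM in DN and 3168, 3069, 3181 and 3537 CPM in DP. All DP libraries lay far above all DN libraries for both genes, and for Cd8b1, the CD8 beta chain (16.3 ± 3.77 CPM, SD, n = 3, in DN and 2265 ± 203 CPM, SD, n = 4, in DP). Il2ra, which encodes CD25, showed the opposite order, with 503, 324 and 397 CPM in DN and 4.91, 11.2, 7.296 and 5.36 CPM in DP. Cd44, which encodes the progenitor marker CD44, was at 35.9 ± 3.85 CPM (SD, n = 3) in DN and 6.63 ± 1.499 CPM (SD, n = 4) in DP. The 3 markers Cd4, Cd8a and Il2ra thus had the order that the names of the groups give them.

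**Figure D1:**
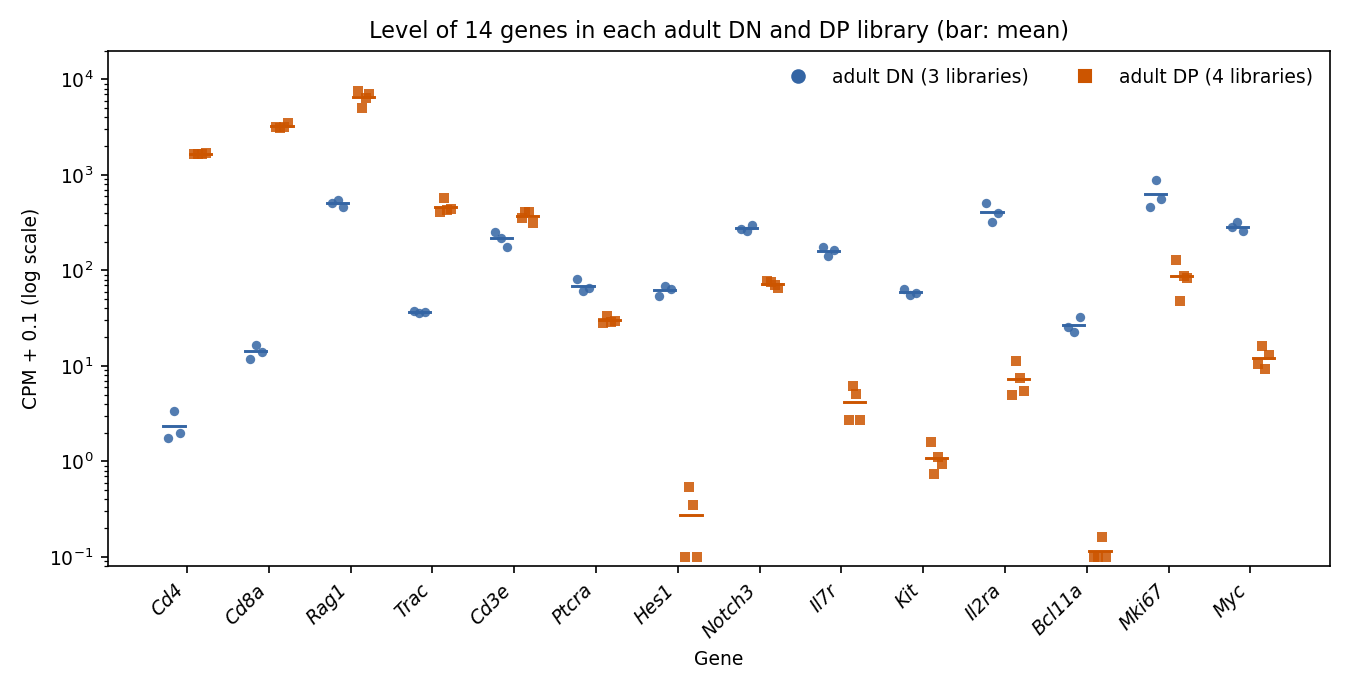
Level of 14 genes in every adult DN (circles) and DP (squares) library, on a log axis of CPM + 0.1, with a bar at the group mean. Cd4, Cd8a, Rag1, Trac and Cd3e were higher in all DP libraries, and Ptcra, Hes1, Notch3, Il7r, Kit, Il2ra, Bcl11a, Mki67 and Myc higher in all DN libraries.

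The step touched most of the measured genes. Of the 16461 tested genes 11304 (68.7%) were called, 5059 (30.7%) higher and 6245 (37.9%) lower in DP. Of all tested genes 2491 (15.1%) were called at least 2-fold higher and 4025 (24.5%) at least 2-fold lower, and DN and DP libraries did not overlap for 10542 genes (64%). The median fold change over all tested genes was −0.06. Shares of list members called should be read against 30.7% and 37.9%. In bulk RNA, fewer cells of a type and less RNA per cell cannot be told apart.

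Besides the sort markers Cd4, Cd8a and Cd8b1, the largest rises included those of Tdrp, Slc6a19, Slc7a11, Xrra1, Hrh3, Lsmem1, Tmie, P3h4, Fn3k, Adam12 and Smoc1. Slc7a11, the cystine transporter of glutathione synthesis, read 1.93, 1.18 and 0.765 CPM in DN and 208, 161, 143 and 141 CPM in DP (log2 fold change 7.07, SE 0.21, edgeR adjusted p = 1.47e-25). Slc6a19, a transporter of neutral amino acids, read 0.732, 0.5299 and 0.727 CPM in DN and 133, 136, 99.4 and 136 CPM in DP (log2 fold change 7.54, SE 0.21, edgeR adjusted p = 3.23e-26). Tdrp rose by 7.58 from 0.499 ± 0.133 CPM (SD, n = 3) and Adam12, a metalloprotease gene, by 6.33 from 1.03 ± 0.701 CPM (SD, n = 3). No library overlapped between the groups for any of these genes. Hrh3, a histamine receptor gene, was at the floor in DN and at 13.9, 12.4, 13.96 and 16.4 CPM in DP, at least 86.6-fold higher. Fold changes were 7.01 for Xrra1, 6.92 for Lsmem1, 6.76 for Tmie, 6.71 for P3h4, 6.46 for Fn3k and 6.23 for Smoc1, and no DN library of these genes exceeded 2 CPM. Tmie overlaps the more abundant Als2cl on the opposite strand (means of 28.9 and 233 CPM in DP). The strand setting of the counts is not given, so reads of Als2cl may have been counted for Tmie.

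The 15 largest falls in the same ranking were all of genes at the floor in DP, so each is given as a bound. Cd163l1, a scavenger receptor gene of gamma-delta T cells, fell at least 384-fold from 63.96, 57.99 and 76.1 CPM in DN, and Fgl2, a fibrinogen-like gene of effector and regulatory T cells, at least 326-fold from 50.2, 49.8 and 68.2 CPM. The NK receptor genes Klrk1, Klra9, Klrd1 and Klrc2 fell at least 219-fold, 212-fold, 141-fold and 102-fold. Klra9 and Klrc2 have close copies in the genome, and reads may have been assigned to the wrong copy. Gzmb, granzyme B of cytotoxic cells, fell at least 203-fold, Cpa3, a mast cell protease also found in early progenitors, at least 213-fold, and Styk1 at least 116-fold. Hhex, a progenitor homeobox factor, fell at least 91.4-fold, Itga1, the integrin alpha 1 chain, at least 114-fold, and Cd209a, a dendritic cell lectin, at least 97.2-fold. For Esm1, Khdc1a and Fndc1 the bounds were 117-fold, 116-fold and 89.3-fold. Many of these genes mark cells other than alpha-beta T cell precursors, whose marker lists are described below.

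Among the chains of the alpha-beta T cell receptor and its precursor, the pre-T alpha chain fell and the alpha and beta constant regions rose. Of 8 listed chain and CD3 genes, all tested, 6 rose and 1 fell (median 1.34, against −0.06 over all genes). Trac (ENSMUSG00000076928, chr14:54220521-54224206, + strand), the alpha chain constant region, read 37.8, 35.97 and 36.7 CPM in DN and 412, 568, 426 and 441 CPM in DP (log2 fold change 3.65, SE 0.12, edgeR adjusted p = 2.08e-24). The DP libraries lay about an order of magnitude above the DN libraries and did not overlap with them. Ptcra (ENSMUSG00000036858, chr17:46755663-46763712, - strand), whose promoter with 2 RBPJ core matches is shown above, read 81.9, 61.1 and 65.5 CPM in DN and 27.9, 33.2, 28.9 and 29.7 CPM in DP and fell (log2 fold change −1.21, SE 0.12, edgeR adjusted p = 3.95e-11). The beta chain constant regions Trbc1 and Trbc2 rose by 1.47 and 1.74, though reads of these near-identical genes may have been shared between them. Of the CD3 signalling chains, Cd247 (zeta) rose by 2.04, Cd3d by 1.21 and Cd3e by 0.77. Cd3g read 799, 568 and 686 CPM in DN and 637, 731, 587 and 672 CPM in DP and did not pass the test (log2 fold change −0.06, SE 0.10, edgeR adjusted p = 0.633), with overlapping libraries.

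Genes of antigen receptor recombination rose in 10 of 16 cases (62.5%, against 30.7% of all genes) and fell in 5 (31.25%, against 37.9%), with a median of 0.66. Rag1 (ENSMUSG00000061311, chr2:101638282-101649501, - strand), which cuts at receptor segments together with Rag2, read 512, 543 and 465 CPM in DN and 7649, 5068, 6476 and 7067 CPM in DP (log2 fold change 3.7, SE 0.30, edgeR adjusted p = 2.20e-11). Rag2 read 32.8, 30.3 and 27.3 CPM in DN and 236, 194, 235 and 263 CPM in DP (log2 fold change 2.95, SE 0.18, edgeR adjusted p = 1.61e-15). Both were higher in every DP library, with DP replicate 2 the lowest of the DP libraries for both. The end-processing and joining genes Dclre1c (Artemis) and Lig4 (DNA ligase IV) rose by 1.97 and 1.28. Dntt, which adds untemplated bases to the joints, was already at 1536 ± 277 CPM (SD, n = 3) in DN and rose by 0.63 (edgeR adjusted p = 3.78e-04). The fallers were led by Poll, a gap-filling polymerase (−2.72), Hmgb2, a chromatin protein of dividing cells (−2.23), Xrcc5, which encodes Ku80 (−1.6), and Atm, a kinase of the break response (−1.52).

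Signalling genes downstream of the receptor were mostly higher in DP. Of 34 listed genes 28 (82.4%, against 30.7% of all genes) rose and 2 fell, with a median of 1.35. The kinases Lck and Zap70, which start the signal, rose by 1.44 and 1.42, and the Tec kinase Txk by 3.08. Cd5, a surface protein that damps the signal, read 26.6, 28.2 and 30.7 CPM in DN and 248, 338, 277 and 295 CPM in DP (log2 fold change 3.34, SE 0.10, edgeR adjusted p = 1.36e-25). The DP libraries of Cd5 were all far above the highest DN library, with no overlap. Themis, an adaptor needed for positive selection, rose by 2.28. Syk, the kinase that partners with Zap70 in early thymocytes, went the other way, reading 104, 95.9 and 119 CPM in DN and 62.8, 51.2, 58.6 and 60.4 CPM in DP (log2 fold change −0.87, SE 0.13, edgeR adjusted p = 4.77e-07). The immediate response genes Egr1, Egr2 and Nr4a1 rose by 2.22, 2.61 and 1.49.

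Notch signalling genes changed in both directions. Among 25 receptor and processing genes, 9 rose (36%) and 10 fell (40%), close to the 30.7% and 37.9% of all genes. Their median was 0.03, close to that of all genes. The receptors fell. Notch1 (ENSMUSG00000026923, chr2:26457903-26516663, - strand), the receptor of T lineage commitment, read 763, 951 and 972 CPM in DN and 153, 124, 149 and 141 CPM in DP (log2 fold change −2.66, SE 0.12, edgeR adjusted p = 1.95e-20). Notch3 read 272, 259.8 and 296 CPM in DN and 77.4, 74.8, 70.7 and 65.6 CPM in DP (log2 fold change −1.94, SE 0.13, edgeR adjusted p = 9.57e-15), and Notch2 fell by 1.29 on the log2 scale. Neither receptor's DN and DP libraries overlapped. Lfng and Mfng, glycosyltransferases that tune the receptors' response to ligand, fell as well. Lfng read 60.3, 65.7 and 67.5 CPM in DN and 1.27, 3.83, 2.03 and 1.13 CPM in DP (log2 fold change −5.02, SE 0.18, edgeR adjusted p = 5.88e-23), and Mfng changed by −0.88. Rbpj, the DNA-binding partner of Notch, changed by −0.25 (edgeR adjusted p = 0.0317), and this call was lost in 10 of the other fits, such as DESeq2 (−0.21, adjusted p = 0.0876) and edgeR without DP replicate 2 (−0.17, adjusted p = 0.141), DN replicate 2 or DN replicate 3.

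Of 14 listed Notch targets 10 fell and 2 rose (median −2.11). Hes1 (ENSMUSG00000022528, chr16:30064384-30067796, + strand), a repressor and a direct target, read 53.7, 68.8 and 64.1 CPM in DN and 0, 0.446, 0.254 and 0 CPM in DP. Its level was near the floor in DP, where 2 of 4 libraries had no count (log2 fold change −8.57, SE 0.39, edgeR adjusted p = 1.25e-19). Myc, a driver of growth, read 282, 321 and 259 CPM in DN and 10.4, 16.01, 9.26 and 12.9 CPM in DP (log2 fold change −4.56, SE 0.12, edgeR adjusted p = 5.11e-27). Changes of −2.29, −2.74 and −3.22 were fitted for Dtx1 and Nrarp, feedback regulators of Notch, and for Ccnd1, cyclin D1. The risers were Cd3e and Tcf7, which encodes the T lineage factor TCF1 (1871, 2238 and 1682 CPM in DN and 3539, 3793, 4243 and 4066 CPM in DP, log2 fold change 1.02, SE 0.09, edgeR adjusted p = 5.15e-12). Il2ra, Notch1, Notch3, Ptcra and Cd3e count in this list and also in others described here. Il2ra, which is among the 10 that fell, is a sort marker, so its fall is no finding.

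Cytokine receptors changed in both directions, 9 of 28 rising (32.1%, close to the 30.7% of all genes) and 16 falling (57.1%, against 37.9%), with a median of −0.57. Those of progenitors fell. Il7r (ENSMUSG00000003882, chr15:9505788-9530176, - strand), the interleukin 7 receptor alpha chain, read 174, 143 and 163 CPM in DN and 2.59, 6.06, 5.01 and 2.63 CPM in DP (log2 fold change −5.33, SE 0.16, edgeR adjusted p = 6.07e-25). Kit, the stem cell factor receptor, read 63.9, 54.8 and 57.5 CPM in DN and 1.49, 0.638, 1.02 and 0.847 CPM in DP (log2 fold change −5.86, SE 0.16, edgeR adjusted p = 2.45e-26). The DP libraries of both genes lay far below every DN library. Flt3, another progenitor receptor, fell by 5.16 on the log2 scale, Il2rb, a shared interleukin receptor chain also of NK cells, fell by 6.89, and Il6ra, the interleukin 6 receptor, fell by 4.17. Il4ra, the interleukin 4 receptor alpha chain, rose instead, reading 22.2, 18.5 and 25.6 CPM in DN and 285, 327, 299.8 and 324 CPM in DP (log2 fold change 3.8, SE 0.11, edgeR adjusted p = 4.02e-26). Il21r and Il6st, the shared gp130 chain, rose by 2.32 and 1.77. Among 16 genes of the JAK, STAT, PIM and SOCS families 7 rose (43.75%, against 30.7% of all genes) and 4 fell (25%, against 37.9%). The feedback inhibitors took opposite directions, Socs1 rising by 2.6 from 41.99 ± 6.09 CPM (SD, n = 3), and Socs2 going from 10.8, 8.89 and 12.9 CPM to the floor, at least 63.1-fold lower.

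**Figure D2:**
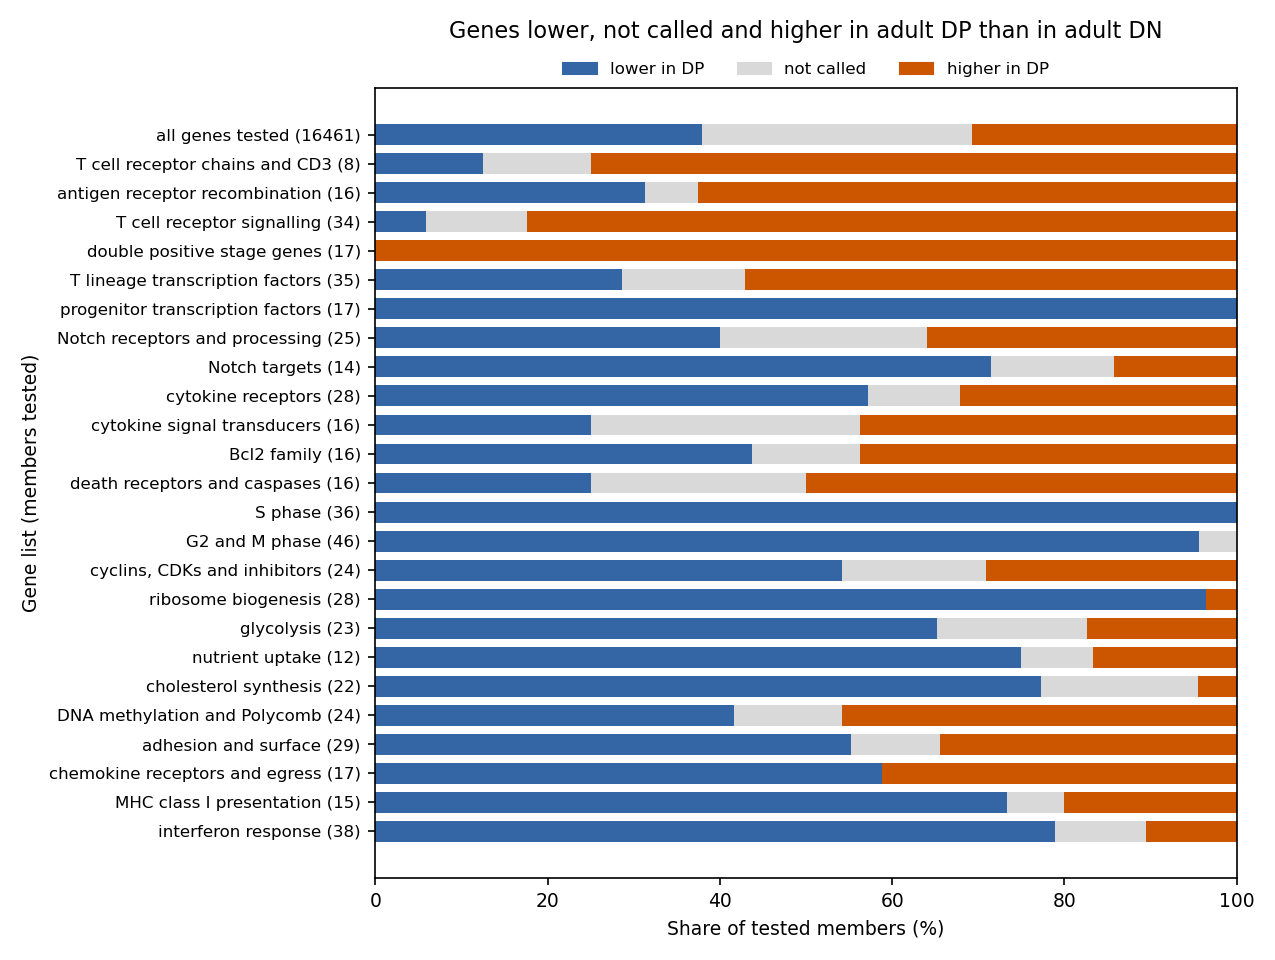
Share of the tested members of each gene list that were lower (blue), not called (grey) and higher (orange) in adult DP than in adult DN, with all 16461 tested genes in the top bar. All S phase genes and all tested progenitor factors were lower, and all genes of the DP stage list higher. The progenitor and DP stage lists were made of genes known for those stages.

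Transcription factors of early progenitors fell throughout. Of 18 listed factors 17 passed the count filter, and all 17 fell, but the list was made of factors known for early progenitors and is no independent evidence. 7 of them were at the floor in DP, so they passed the filter through other groups and could not have risen. With these at their bound the median was −4.7. Spi1, which encodes PU.1, a factor of progenitor and myeloid programmes, read 16.97, 21.1 and 29.6 CPM in DN and 0.0552, 0.255, 0.0634 and 0.0471 CPM in DP (log2 fold change −7.73, SE 0.49, edgeR adjusted p = 1.74e-15). Bcl11a fell from 25.7, 22.7 and 32.2 CPM to the floor, at least 156-fold, and Erg from 30.1, 25.1 and 29.9 CPM, at least 165-fold. Mef2c and Lmo2, also of the progenitor network, changed by −6.83 and −5.25 on the log2 scale. DP libraries of these factors held less than 1 CPM. The smallest fall was that of Tcf4, an E protein gene, with 91.8, 86.7 and 76.9 CPM in DN and 54.1, 55.5, 53.5 and 41.4 CPM in DP (−0.74). Markers of myeloid, dendritic and B cells, some of which also use Spi1, Bcl11a and Mef2c, were higher in DN as well (summed myeloid list 126 to 282 CPM in DN and 9.65 to 10.6 CPM in DP), and their part in these falls was not tested.

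Of 35 factors of the T lineage, 20 rose (57.1%, against 30.7% of all genes) and 10 fell (28.6%, against 37.9%), with a median of 0.52. Bcl6 (ENSMUSG00000022508, chr16:23965052-23988852, - strand), a repressor, read 9.92, 8.89 and 11.2 CPM in DN and 195, 219.99, 246 and 242 CPM in DP (log2 fold change 4.49, SE 0.14, edgeR adjusted p = 1.36e-25). Ets2 read 53.2, 69.4 and 50.9 CPM in DN and 745, 868, 909.7 and 898 CPM in DP (log2 fold change 3.89, SE 0.13, edgeR adjusted p = 1.19e-24). The DN and DP libraries of both genes were far apart and did not overlap. Satb1, a chromatin organiser, rose by 2.84 to 3548 ± 299.6 CPM (SD, n = 4). Smaller rises were seen for Bcl11b, a commitment factor (0.83), Ets1 (1.25), the E protein gene Tcf12 (0.65), Myb (1.2) and the E protein inhibitor Id3 (1.5). Its relative Id2, an E protein inhibitor that innate lymphocytes require, moved the other way, with 68.6, 54.2 and 69.7 CPM in DN and 9.22, 14.5, 11.3 and 10.7 CPM in DP (log2 fold change −2.5, SE 0.16, edgeR adjusted p = 1.66e-15). Sox13, a gamma-delta lineage factor, changed by −6.99, Klf2, an egress factor, by −3.18, Zbtb7b, the CD4 lineage factor ThPOK, by −2.92, and Runx3, of the CD8 and innate lineages, by −2.6. Runx1 changed by −0.73. Gata3, needed at several steps, changed by −0.26 (edgeR adjusted p = 0.0317) with overlapping libraries, and lost its call under total-count scaling (−0.20, adjusted p = 0.112) and in 10 other fits, among them those without DN replicate 2 or 3 or DP replicate 1 or 4 (−0.24 to −0.18).

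All 17 genes listed as DP stage genes rose (median 3.89), but the list was made of genes known for that stage and is no independent evidence. It also holds the sort marker Cd4, which had its largest value (9.55). Plxnd1, a semaphorin receptor that guides thymocytes to the medulla, read 31.3, 31.7 and 45.96 CPM in DN and 931, 948, 976 and 1038 CPM in DP (log2 fold change 4.74, SE 0.16, edgeR adjusted p = 3.55e-23). Ccr9, the receptor of a thymic chemokine, read 85.7, 62.996 and 73.3 CPM in DN and 1196, 1265, 1209 and 1142 CPM in DP (log2 fold change 4.02, SE 0.14, edgeR adjusted p = 1.56e-23). Both were higher in each DP library by more than an order of magnitude. Slamf1, a receptor in NKT cell selection, rose by 4.00 and Cd1d1, which presents lipids to those cells, by 1.44.

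**Figure D3:**
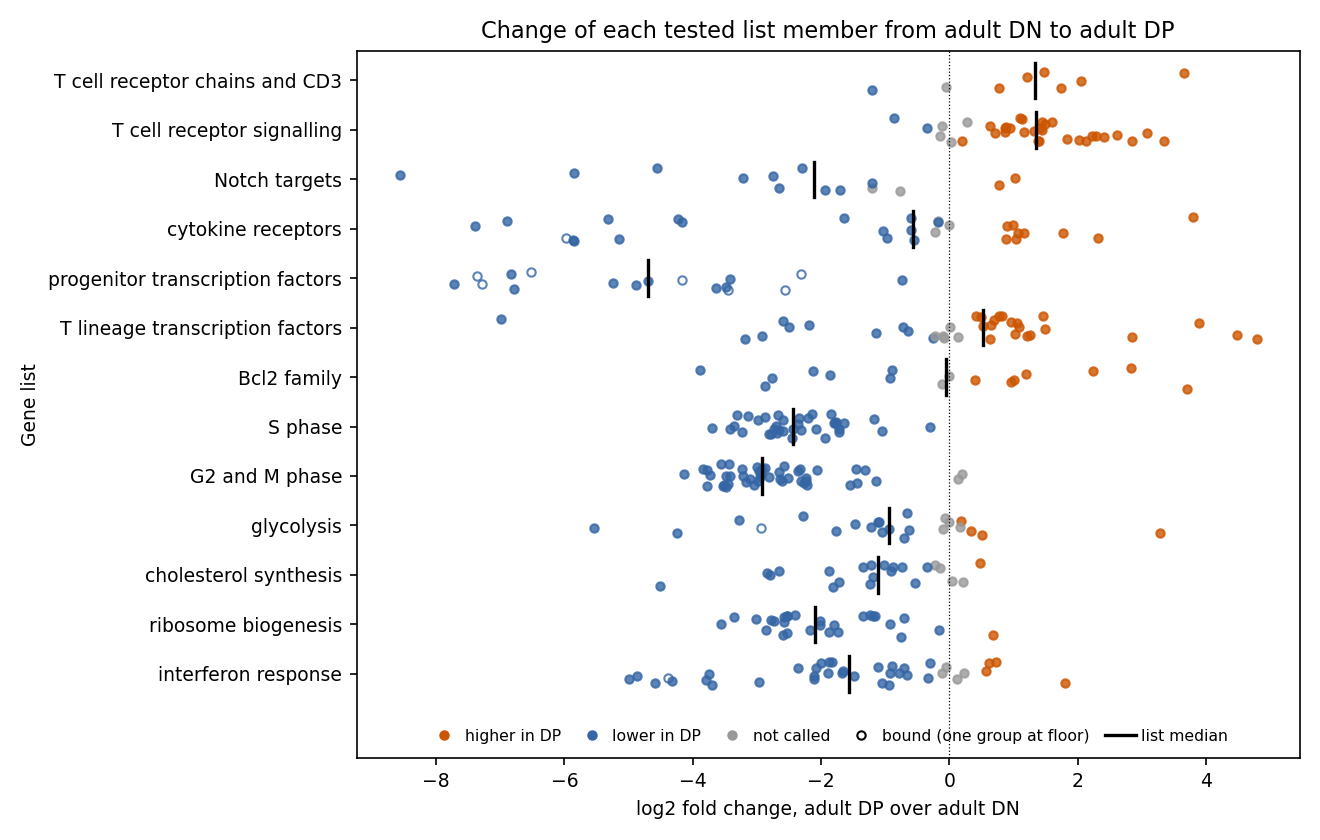
Log2 fold change from adult DN to adult DP of every tested member of 13 gene lists, with points in orange (higher), blue (lower) or grey (not called), open circles for bounds and a black line at the list median. S phase, G2 and M phase and ribosome biogenesis lie almost wholly left of 0, T cell receptor signalling mostly right of it.

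Survival genes changed in both directions. Of 19 genes of the Bcl2 family 16 were tested, 7 rising and 7 falling (43.75% each, against 30.7% and 37.9% of all genes). Their median was −0.06, the same as over all genes. Bcl2 (ENSMUSG00000057329, chr1:106538178-106714274, - strand), the survival protein that interleukin 7 sustains, read 119.7, 116 and 141 CPM in DN and 22.7, 34.6, 31.4 and 26.2 CPM in DP (log2 fold change −2.13, SE 0.11, edgeR adjusted p = 1.48e-19). Bcl2l1 (ENSMUSG00000007659, chr2:152780668-152831728, - strand), which encodes Bcl-xL, read 25.7, 31.1 and 29.01 CPM in DN and 339.9, 421, 332 and 403 CPM in DP (log2 fold change 3.71, SE 0.11, edgeR adjusted p = 1.47e-25). No library overlapped between the groups for either gene, and the order was opposite. Mcl1, a further survival gene, rose by 1.01. The death-promoting genes Bmf, Bbc3 (PUMA) and Bcl2l11 (BIM) rose by 2.83, 2.23 and 0.96, while Pmaip1 (NOXA) changed by −1.86. Among 16 death receptor and caspase genes 8 rose (50%) and 4 fell (25%). Fas, a death receptor, read 3.93, 3.297 and 3.14 CPM in DN and 96.5, 98.9, 92.2 and 99.98 CPM in DP (log2 fold change 4.82, SE 0.14, edgeR adjusted p = 3.23e-26), and its ligand Fasl, a gene of cytotoxic cells, changed by −5.74.

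Cell cycle genes fell nearly without exception. All 36 of 36 S phase genes (median −2.44) and 44 of 46 G2 and M phase genes (median −2.93) were lower in DP, against 37.9% of all genes. Mcm3, a helicase subunit, read 528, 504 and 457 CPM in DN and 85.9, 78.4, 76.5 and 68.3 CPM in DP (log2 fold change −2.68, SE 0.11, edgeR adjusted p = 7.33e-22). Mki67, which encodes the proliferation marker Ki-67, read 462, 888 and 561 CPM in DN and 128, 48.3, 88.1 and 83.4 CPM in DP (log2 fold change −2.87, SE 0.33, edgeR adjusted p = 2.64e-08). DN replicate 3 had the highest Mki67 and DP replicate 2 the lowest, with no overlap. Cdk1, whose promoter is shown above, read 61.1, 80.4 and 46.2 CPM in DN and 6.79, 4.46, 6.34 and 4.71 CPM in DP (log2 fold change −3.49, SE 0.24, edgeR adjusted p = 1.47e-13), and Top2a read 542, 864 and 550.1 CPM in DN and 99.6, 50.01, 91.04 and 62.8 CPM in DP (log2 fold change −3.1, SE 0.24, edgeR adjusted p = 1.20e-11). The S phase list ranged from Exo1, a nuclease (−3.69), to Cdca7, a chromatin remodelling partner (−0.31), with Pcna, the polymerase clamp, at −1.77 and Cdt1, a licensing factor, at −1.84. The mitotic kinases Aurkb and Plk1 changed by −4.14 and −3.51 and Kif23, a cytokinesis motor, by −1.46. Smc4, a condensin subunit, and Hjurp, a centromere histone chaperone, did not pass the test (0.14 and 0.19), and their DP levels of 719 ± 40.1 CPM and 265 ± 37.5 CPM (SD, n = 4) overlapped with DN.

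Cyclins, their kinases and inhibitors moved in both directions. Of 24 tested genes 7 rose (29.2%, close to the 30.7% of all genes) and 13 fell (54.2%, against 37.9%). The D cyclins were exchanged. Ccnd2, cyclin D2, read 276, 279.8 and 258 CPM in DN and 4.58, 5.55, 7.36 and 2.16 CPM in DP (log2 fold change −5.82, SE 0.22, edgeR adjusted p = 1.33e-19). Ccnd3, cyclin D3, which beta selection requires, read 323, 342 and 297 CPM in DN and 1307, 1449, 1304 and 1318 CPM in DP (log2 fold change 2.07, SE 0.09, edgeR adjusted p = 1.50e-21). Cdk6, their kinase, changed by −3.6 and E2f1, an S phase activator, by −2.69, while E2f2 rose by 1.16. The inhibitors Cdkn1b (p27) and Cdkn2d (p19) rose by 2.16 and 2.61. Cdkn1a (p21) changed by −5.25, from 21.3 ± 4.93 CPM (SD, n = 3) to 0.562 ± 0.1005 CPM (SD, n = 4).

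Genes of growth and biosynthesis fell with the cell cycle. Of 28 ribosome biogenesis genes 27 fell (median −2.1). Npm1, a nucleolar chaperone, read 2358, 1940.03 and 1728 CPM in DN and 343, 329.6, 322 and 342 CPM in DP (log2 fold change −2.59, SE 0.11, edgeR adjusted p = 1.39e-21), and Ncl (nucleolin) and Polr1b, a subunit of RNA polymerase I, changed by −2.02 and −3.56. The riser was Wdr12, a ribosome assembly factor (0.67). In glycolysis 15 of 23 genes fell and 4 rose (median −0.94). Hk2, a hexokinase, read 42.3, 44.6 and 48.8 CPM in DN and 2.21, 2.998, 2.09 and 2.26 CPM in DP (log2 fold change −4.25, SE 0.14, edgeR adjusted p = 9.78e-25), and Tpi1, Ldha and Pkm changed by −3.27, −1.48 and −0.94. The lactate dehydrogenase subunits took opposite directions, Ldhb reading 78.7, 59.7 and 66.9 CPM in DN and 609.8, 746, 598 and 695 CPM in DP (log2 fold change 3.28, SE 0.11, edgeR adjusted p = 5.97e-24). Of 12 nutrient transporters 9 fell, among them Slc7a5, a transporter of large amino acids (−3.85), and Tfrc, the transferrin receptor (−2.35), and 2 rose, among them Slc43a1 (1.42). Cholesterol genes fell in 17 of 22 cases (median −1.11), with the synthesis enzymes Sqle at −2.85 and Hmgcs1 at −1.73. Pmvk, the riser of that list (0.47), lost its call without DP replicate 2 (0.25, adjusted p = 0.0607), which stood apart at 29.9 CPM.

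Receptors for migration also changed direction by gene, 7 of 17 rising (41.2%) and 10 falling (58.8%), against 30.7% and 37.9% of all genes. Cxcr4, which holds early thymocytes in the cortex, rose by 1.43 and Ccr4, of the medullary path, by 3.1. S1pr1, the receptor of exit to the blood, read 12.5, 6.48 and 11.8 CPM in DN and 0.1104, 0.128, 0.317 and 0.188 CPM in DP (log2 fold change −5.76, SE 0.29, edgeR adjusted p = 4.31e-19). Ccr2, a receptor of myeloid and innate cells, changed by −4.72. Ccr7, the medullary homing receptor, read 10.2, 6.24 and 6.74 CPM in DN and 9.82, 12.2, 9.52 and 8.99 CPM in DP with overlap. Its fold change of 0.4 (edgeR adjusted p = 0.0256) lost the call without DN replicate 3 (0.28, adjusted p = 0.163), DN replicate 4 (0.30, adjusted p = 0.157) or DP replicate 2 (0.31, adjusted p = 0.1), by edgeR. Of 29 adhesion and surface genes 10 rose (34.5%) and 16 fell (55.2%), against 30.7% and 37.9% of all genes. Rises included those of Cd27 (2.22), a costimulatory receptor, and Thy1 (1.05). Falls included those of the integrin chains Itgae (−5.27) and Itga4 (−1.6) and of Cd24a (−0.82).

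Class I antigen presentation and interferon response genes were lower in DP. Of 15 class I genes 11 fell (median −1.05). H2-K1, a classical class I heavy chain, read 726, 747 and 960.1 CPM in DN and 47.3, 67.4, 59.95 and 49.9 CPM in DP (log2 fold change −3.85, SE 0.14, edgeR adjusted p = 1.01e-23), while H2-D1 and B2m, the shared light chain, changed by −1.55 and −1.93. Reads of class I heavy chain genes may be shared between near-identical copies. Nlrc5, the class I transactivator, changed by −2.31. Of 38 interferon response genes 30 (78.95%) fell and 4 rose (median −1.57). Irf7, a factor of the response, read 34.6, 35.2 and 46.3 CPM in DN and 9.22, 11.99, 10.2 and 7.43 CPM in DP (log2 fold change −2.01, SE 0.12, edgeR adjusted p = 3.64e-17), and Ifit3 and Ifi213 changed by −3.71 and −4.99. Igtp, an interferon-induced GTPase, rose by 1.79. Summed over the list the interferon genes had 1367 to 1463 CPM in DN and 986 to 1126 CPM in DP. Chromatin regulators were mixed, 11 of 24 rising (45.8%, against 30.7% of all genes) and 10 falling (41.7%, against 37.9%). Dnmt3b, a de novo DNA methyltransferase, read 76.4, 73.2 and 77.6 CPM in DN and 2.26, 2.49, 1.84 and 2.07 CPM in DP (log2 fold change −5.13, SE 0.15, edgeR adjusted p = 4.20e-26), Dnmt1, the maintenance enzyme, changed by −1.98, and Kdm6b, an H3K27 demethylase, by 1.55.

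Genes that mark other cell types were also measured, since such cells can be sorted with DN cells. Members at the floor in DP passed the count filter through other groups and could not have risen, so counts of falls are no independent evidence. At the floor were 3 of 12 gamma-delta T cell, 14 of 22 NK cell and innate lymphocyte and 5 of 7 innate-like T cell genes. All 12 of 12 gamma-delta T cell genes fell, their summed level being 1282 to 1548 CPM in DN and 32.5 to 39.3 CPM in DP. Tcrg-C1 and Tcrg-C2, constant regions of the gamma chain, read 287 ± 41.8 CPM and 361 ± 32.2 CPM (SD, n = 3) in DN and 0.8103 ± 0.432 CPM and 0.249 ± 0.1401 CPM (SD, n = 4) in DP, and near-identical copies make each count uncertain. Trdc, the delta chain constant region, changed by −2.81 and stayed at 27.9 ± 3.28 CPM (SD, n = 4) in DP. Of 22 NK cell and innate lymphocyte genes 21 fell, with 654 to 751 CPM summed in DN and 25.6 to 32.3 CPM in DP. Nkg7, a granule gene, and Gzma, granzyme A, changed by −7.34 and −3.64, and Klrb1c, which encodes NK1.1, fell at least 138-fold. Prf1, perforin, did not pass the test (log2 fold change −0.33, SE 0.18, edgeR adjusted p = 0.1004). Innate-like T cell genes fell in 7 of 7 cases, with Zbtb16, the PLZF gene, at the floor in DP, at least 61.1-fold lower.

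Most B cell, plasma cell, dendritic and myeloid genes fell as well. At the floor in DP were 5 of 13 B cell, 2 of 7 plasma cell, 4 of 14 dendritic and class II and 6 of 11 myeloid genes, for which a rise was not possible. B cell genes fell in 12 of 13 cases. Igkc, the kappa light chain constant region, read 114, 60.7 and 1205 CPM in DN, and Jchain, a gene of antibody-secreting cells, 14.3, 13.5 and 288 CPM. DN replicate 4 was far the highest for both. Ighm, the mu heavy chain constant region, read 404, 315 and 1079 CPM in DN and 425, 425, 412 and 432 CPM in DP (log2 fold change −0.5, SE 0.22, edgeR adjusted p = 0.0447). Without DN replicate 4 its sign turned (0.23, edgeR adjusted p = 0.0364), and without any 1 DP library the call was lost. Plasma cell genes fell in 5 of 7 cases, dendritic and class II genes in 13 of 14, with Cd74 at −8.13 and H2-Ab1 at −6.52, and Ccr9, which thymocytes also use, the riser. Myeloid genes fell in 10 of 11, with Lyz2 (lysozyme) at 138, 62.6 and 179 CPM in DN and 1.05, 0.191, 0.381 and 0.329 CPM in DP and Mpo, myeloperoxidase, at least 69.9-fold lower. Erythroid genes fell in 2 of 7 cases (28.6%) at summed levels of 4.25 to 4.73 CPM in DN and 0.444 to 2.49 CPM in DP. Thymic stroma genes fell in 3 of 7 (42.9%), with 2 rising (28.6%), near the 37.9% and 30.7% of all genes. Mature T cell genes fell in 8 of 12 cases (658 to 827 CPM summed in DN and 259 to 294 CPM in DP). Several of these lists hold a gene that DP cells had at a high level, so sums are given with and without it, a choice made after the values were seen. The B cell sum was 516 to 2633 CPM in DN and 440.2 to 465 CPM in DP, and without Ighm 201 to 1554 and 27.7 to 40.4 CPM. The plasma cell sum was 159.5 to 662 and 186 to 213 CPM, and 34.8 to 439 and 5.98 to 10.1 CPM without Xbp1, a secretory factor used in many cells. For dendritic and class II genes it was 946 to 1707 and 1180.4 to 1309.9 CPM, and 883 to 1634 and 38.5 to 44.8 CPM without Ccr9. DP levels of the dendritic list were thus almost wholly those of Ccr9. Stroma genes summed to 132 to 156 and 145 to 182 CPM, and to 36.9 to 50.4 and 16.1 to 17.99 CPM without Pecam1, an adhesion gene of endothelial and blood cells. The part of these cells in the falls of other lists, cytokine receptor, class I and interferon genes among them, was not tested.

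**Figure D4:**
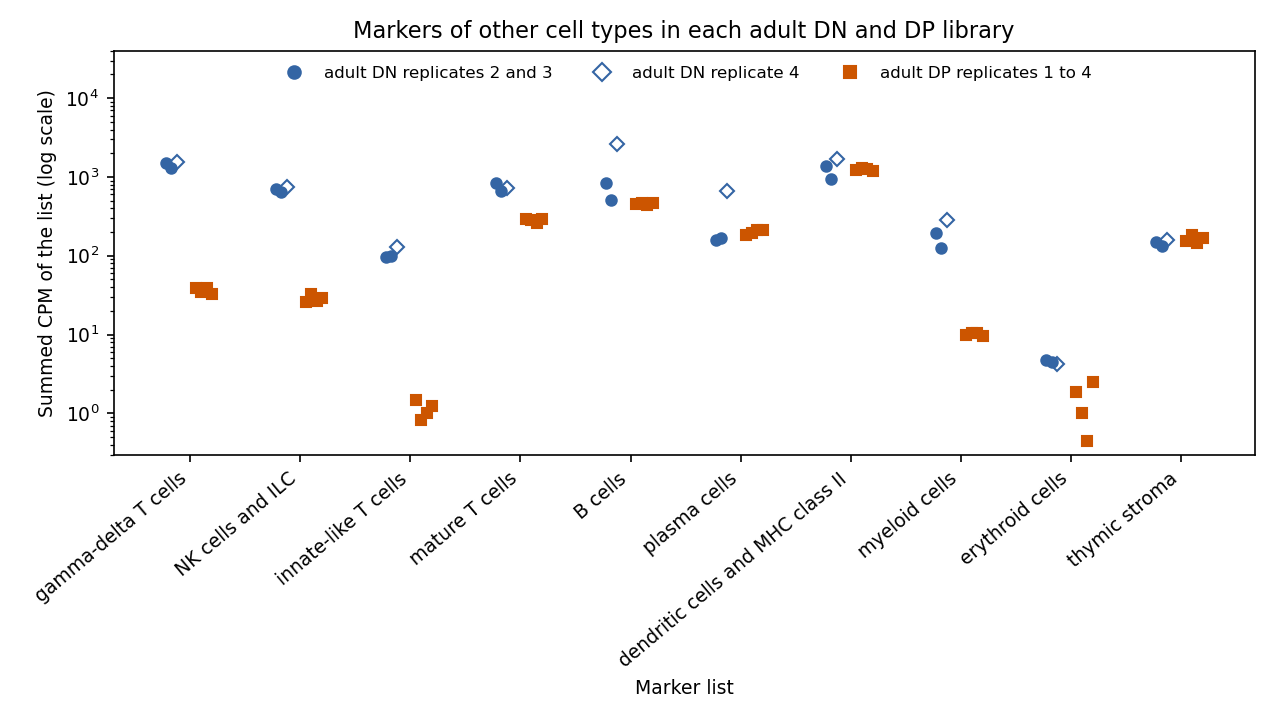
Summed level of 10 marker lists of other cell types in each adult DN library (circles, with replicate 4 as an open diamond) and DP library (squares), on a log axis. DN replicate 4 is far the highest library for B cell and plasma cell genes. By smaller margins it is also the highest for dendritic, myeloid, innate-like, NK cell and gamma-delta T cell genes. The DP sums of B cell, plasma cell, dendritic and stroma lists are mostly Ighm, Xbp1, Ccr9 and Pecam1.

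The same step in neonates had the same direction for most genes. Of 10066 genes called at both ages 9922 had the same sign and 144 the opposite one. The difference of the steps, neonatal minus adult, was called for 2944 genes (17.9%), 2031 (12.3%) higher and 913 (5.55%) lower in neonates. This count was 1811 without adult DN replicate 4 and 4757 with the replicate block in a fit of the compared groups only. The share of higher values among the calls was 69% and depended on the fit. It was 52.7% with RLE, 83.8% with total counts and 52.2% under DESeq2, 52.4% with the compared groups only, 48% with the block and 92.2% with a required 2-fold change. The median difference over all genes was 0.11 with TMM, 0.03 with RLE and 0.21 with total counts.

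Some lists had differences almost wholly in 1 direction under each scaling, the counts that follow being those of TMM, RLE, total counts and DESeq2 in turn. In glycolysis the neonatal step was lower for 13, 15, 11 and 16 of 23 genes, and higher for 1 under DESeq2 and 0 otherwise. Ldha, for instance, changed by −1.48 in adults and −2.54 in neonates (difference −1.07, SE 0.14, edgeR adjusted p = 4.16e-07). Mean Ldha levels in DN were 979 ± 97.4 CPM in the 3 adult libraries and 1599 ± 102 CPM in the 4 neonatal ones, with their SD. Ribosome biogenesis was lower for 16, 22, 11 and 22 of 28 genes and higher for 0, with differences of −0.55 for Npm1, −0.38 for Ncl and −0.54 for Wdr12. Npm1 and Ncl fell at both ages and by more in neonates. Interferon response genes differed the other way, with 19, 16, 23 and 18 of 38 higher and 0 lower. Their summed level was 588 to 658 CPM in neonatal and 1367 to 1463 CPM in adult DN, against 783 to 826 and 986 to 1126 CPM in DP. Cytokine receptors were higher for 16, 15, 20 and 15 of 28 genes and lower for 0. Of 46 G2 and M phase genes 0 differed by the edgeR quasi-likelihood test, with 3 higher and 1 lower at an unadjusted p under 0.05. RLE, total counts, limma-voom and each fit without 1 library called at most 1. With the replicate block 9 were higher and 3 lower, with no filter on low counts 8 were higher, and under DESeq2 2 were lower.

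Single genes showed where the adult step stood apart. Kit changed by −5.86 in adults and by −1.76 in neonates (difference 4.11, SE 0.20, edgeR adjusted p = 4.45e-17), its DP level being 0.997 ± 0.363 CPM in adults and 13.5 ± 0.947 CPM in neonates (SD, n = 4 each). Notch3 fell in adults and rose by 0.33 in neonates (difference 2.27, SE 0.18, edgeR adjusted p = 4.32e-11), and for Notch1 the difference was 1.58. Il2ra differed by 3.06 and Bcl2 by 1.44, with smaller falls in neonates. Il6ra differed by 4.04 and did not pass the test in neonates (−0.13). Cd8a and Cd4 rose less in neonates (−2.43 and −1.33). Il2ra, Cd8a and Cd4 are sort markers, and the part of sorting in their differences was not tested. DN libraries held Cd8a at 14.2 ± 2.44 CPM (SD, n = 3) in adults and at 66.6 ± 2.18 CPM (SD, n = 4) in neonates. Trac and Fas rose more in neonates (1.15 and 0.76). The highest called differences among genes at 10 CPM or more in an adult group were those of Klra9, Styk1, Itga1 and Klrk1, all at the floor in adult DP, so that their fitted values give no size, and which all lost their calls without neonatal DP replicate 2 (adjusted p = 1, 1, 0.0996 and 0.237), and of Spib, an Ets factor of B and dendritic cells (6.38, SE 0.41, edgeR adjusted p = 3.77e-14). Spib fell in adults from 34.7 ± 11.7 CPM (SD, n = 3) to 0.202 ± 0.0864 CPM (SD, n = 4) and was at 23.5 ± 1.89 CPM and 11.5 ± 1.16 CPM (SD, n = 4 each) in neonatal DN and DP. The lowest were those of Tmie (−3.64, but −1.69 with an edgeR adjusted p = 0.689 without neonatal DN replicate 2), Ccr2 (−2.99), Cd8a, Als2cl (−2.17) and Arsi (−2.09). Als2cl read 4.13, 8.83 and 5.97 CPM in DN and 233, 194, 261 and 245 CPM in DP in adults, and Arsi rose by 2.11 in adults, with 0.02 in neonates, where it did not pass the test. Tmie and Als2cl overlap on opposite strands, so the differences of these genes may not be separate. Markers of other cells differed between the ages too. Summed NK cell and innate lymphocyte genes were at 376 to 480.2 CPM in neonatal DN against 654 to 751 CPM in adult DN. Their part in the differences of the steps was not tested.

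**Figure D5:**
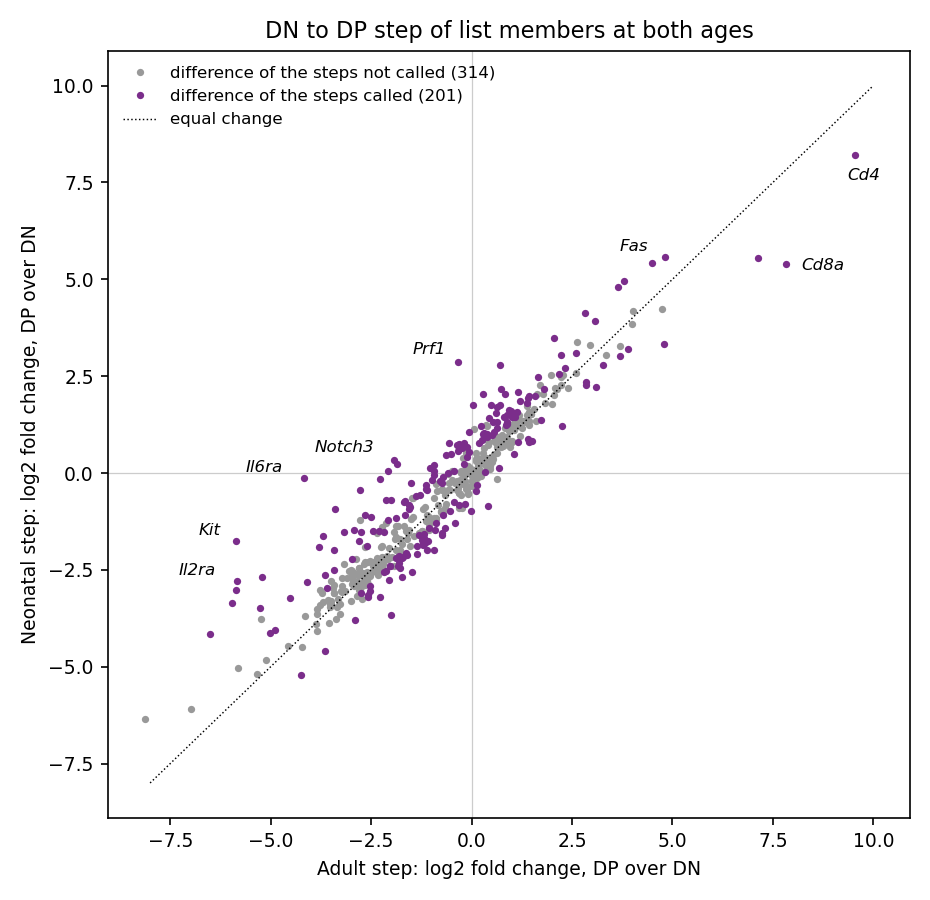
Log2 fold change from DN to DP in adults (horizontal) and neonates (vertical) of the 515 of 639 tested list members with a mean of at least 0.5 CPM in all 4 groups, in purple where the difference of the steps was called (201) and in grey where it was not (314). Most points lie along the dotted line of equal change, with Kit and Il2ra above it and Cd8a below it. Il2ra and Cd8a are sort markers.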

How the data were processed

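Polyadenylated RNA was sequenced by the submitters. The deposited table holds raw counts per gene for 53700 Ensembl identifiers. The submitters' processing notes name mm10, Trim Galore and STAR 2.7.10a, and the counting tool and strand setting are not given in the sources used here, so antisense, overlapping and near-identical genes are uncertain. Symbols and coordinates came from GENCODE mouse release 21 (GRCm38), with 97% of identifiers matched, and promoters from RefSeq on GRCm38.p6.

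Counts were fitted with edgeR 4.0.16 (R 4.3.3, quasi-likelihood F-test, TMM scaling) as group means over all 31 libraries in 8 groups, so that groups share 1 estimate of spread. Genes passed filterByExpr (minimum count 10, minimum total 15), leaving 16461, and p-values were adjusted by Benjamini-Hochberg over all of them. The interaction is the neonatal minus the adult step. Each SE given is the absolute log2 value divided by the square root of its F statistic, and not a fitted standard error. In DN and DP 3 counts correspond to 0.115 to 0.2 CPM. Replicates of the same number deviated together (correlations 0.204, 0.133 and 0.124, against −0.129 to 0.004 for different numbers). Deviations were taken from the group mean, so positive values for the same number push the others below 0 on average. The numbers were taken as pairs only in the replicate block, and the calls come from the fit without it. The members and lists were chosen with earlier results of these data known.

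Genes named are list members, the 15 largest rises and 15 largest falls with at least 10 CPM and no overlap, and the 5 highest and 5 lowest interactions at 10 CPM or more. Predicted genes, pseudogenes and receptor segments were left out of the rankings. Some genes that the rule names are not reported here. Alternatives were RLE and total-count scaling, other filters, DESeq2 1.42.0, limma-voom (limma 3.58.1), a required 2-fold change, the compared groups only, the block and leaving out each library.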

Additional observations from a re-analysis of the deposited data

Results flagged for a closer look

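Among the 188 named genes, 16 had 1 adult DP value apart from the other DP values by Dixon's ratio, and only DP was examined, since DN has 3 libraries. For 5 of them the other 3 libraries had no count, so that any count gives the highest ratio and the test says nothing. These were Cd163l1 (0.0552 CPM in replicate 1), Socs2 (0.0941 CPM in replicate 4), Bcl11a (0.0634 CPM in replicate 3), Erg (0.1903 CPM in replicate 3) and Klrb1c (0.1104 CPM in replicate 1). For the other 11, chance flags about 1 in 20 groups. DP replicate 2 stood apart for Cd44 (8.87 CPM), Smoc1 (129.5 CPM), Cd3d (705 CPM), Poll (2.11 CPM), Spi1 (0.255 CPM), Ets1 (1817 CPM), Ccnd3 (1449 CPM) and Pmvk (29.9 CPM). DP replicate 3 stood apart for Slc6a19 (99.4 CPM) and Jchain (0.698 CPM). DP replicate 4 stood apart for Tcf4 (41.4 CPM). 

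For 80 of the 188 named genes the step from DN to DP differed between the ages by the edgeR interaction test, each value being the neonatal minus the adult log2 fold change. The same test called 17.9% of all tested genes, and 10 of the named genes had been chosen for the size of this difference. It was higher in neonates for Spib (6.38), Kit (4.11), Il6ra (4.04), Prf1 (3.19), Il2ra (3.06), H2-Ab1 (2.36), Notch3 (2.27) and S1pr1 (2.18). Further higher differences were those of Ifi213 (2.15), Dtx1 (2.13), Pmaip1 (2.1), Ifit3 (2.08), Itgae (1.78), Klf2 (1.66), Notch1 (1.58) and Zbtb7b (1.44). Positive values were also found for Bcl2 (1.44), Id2 (1.37), Bmf (1.32), Irf7 (1.31), Nrarp (1.22), Il4ra (1.16), Trac (1.15) and Dntt (1.08). It was higher in neonates for Ighm (0.99), Cd44 (0.96), Bcl6 (0.93), Lfng (0.89), Txk (0.84), Nlrc5 (0.81), Bbc3 (0.81) and Fas (0.76). Further higher differences were those of Runx3 (0.72), Notch2 (0.72), Myb (0.66), Cdk6 (0.65), H2-D1 (0.63), Cd3g (0.59), Cd1d1 (0.54) and Socs1 (0.51). Positive values were also found for Tcf4 (0.48), Il21r (0.4), Cdkn1b (0.39) and Igtp (0.36). It was lower in neonates for Tmie (−3.64), Ccr2 (−2.99), Cd8a (−2.43), Als2cl (−2.17), Arsi (−2.09), Slc6a19 (−1.63), Cd8b1 (−1.58) and Cd4 (−1.33). Further lower differences were those of Ccr7 (−1.25), Ldha (−1.07), Pkm (−1.05), Gzma (−0.97), Hk2 (−0.96), Hmgcs1 (−0.96), Ccr4 (−0.87) and Ets2 (−0.69). Negative values were also found for Bcl2l1 (−0.68), Id3 (−0.66), Slc43a1 (−0.63), Cdt1 (−0.57), Thy1 (−0.57), Satb1 (−0.56), Npm1 (−0.55) and Wdr12 (−0.54). It was lower in neonates for Zap70 (−0.53), Cdca7 (−0.52), Xrcc5 (−0.51), Ldhb (−0.48), Trbc2 (−0.38), Ncl (−0.38) and E2f2 (−0.37). Fitted differences of genes at the floor in an adult group, which give no size, were those of Klra9 (9.83), Styk1 (8.1), Itga1 (7.2), Klrk1 (6.51) and Cd163l1 (3.96). Which of these depend on cells other than thymocytes was not tested. Cd4, Cd8a, Cd8b1, Il2ra and Cd44 are sort markers, and the part of sorting in their values was not tested either.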

How the results depend on the processing

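The count of 11304 genes called from adult DN to DP stayed within 1.5 times, from 8996 to 11880, under the alternatives other than a required 2-fold change, which left 6516. Leaving out 1 library gave 10773 to 11175, and the replicate block 10355. The count of 2944 genes whose step differed between the ages became 1046 with a required 2-fold change and 4757 with the replicate block, and leaving out 1 library gave 1811 to 3098, the lowest without adult DN replicate 4. The causes were not tested. The sign of Cd3g, which was not called, turned to 0.0031 with total-count scaling, 0.0093 with the replicate block and 0.0618 without DN replicate 2. Over all left-out libraries Cd3g ran from −0.1803 to 0.0618 and Ighm from −0.8125 to 0.233, with Ighm positive only without DN replicate 4. Scaling moved the median of all genes from −0.06 to −0.02 with RLE and 0.00 with total counts. Depth limits genes near 3 counts per library, where folds are bounds. Each DN library pools several steps and holds markers of other cells, and only 3 DN libraries were used.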
